A study of Mus musculus with 28 samples.

Results

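The genes described here are 10 transcription factors that set or mark the cell lineages of the mammary gland: Trp63, Gata3, Foxa1, Esr1, Pgr, Sox9, Sox10, Tbx3, Id2 and Cebpb. They were given by symbol, and all 10 were found among the 56748 mouse gene identifiers counted in the series. Counts came from 28 libraries of total RNA with ribosomal RNA removed. There were 8 libraries of 4T1, a mouse mammary cancer line, with the treatment label DOX, 10 libraries of HC11, an untransformed mouse mammary epithelial line, labelled DOX + DIP, and 10 HC11 libraries labelled DOX. All groups thus carry the DOX label. Neither abbreviation is spelled out in the labels. In work on HC11, DIP usually stands for the lactogenic mixture of dexamethasone, insulin and prolactin. The labels name no culture, clone or batch, so p-values measure only the spread between these libraries, which may be technical.

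Mammary epithelium has a basal layer, which includes the contractile myoepithelium, and a luminal layer, in which hormone-sensing cells lie beside secretory alveolar cells and their progenitors. Trp63 encodes p63, on which basal identity depends. Gata3, Foxa1, the oestrogen receptor gene Esr1 and the progesterone receptor gene Pgr belong to the luminal and hormone-sensing programme, and Tbx3 acts in gland formation and in hormone-sensing cells. Sox9 marks progenitors, Sox10 marks progenitor and neural crest states, and Id2 and Cebpb are needed in mice for growth and differentiation of the alveoli.

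Depth lay between 134117581 and 222065843 counts per library. Levels below are in CPM, counts scaled to the size of each library after TMM normalisation over the 28 libraries. Of 8 epithelial markers, 6 were called higher and 1 lower in 4T1 than in HC11 DOX, beside 34.3% and 35.6% of all genes. With DIP, 4 of these markers were called higher and 1 lower, beside 24.5% and 21.0% of all genes. The summed level of the 8 markers was 2928 to 4263 CPM in 4T1, 500 to 1273 CPM with DIP and 640.0 to 948 CPM in HC11 DOX. Cdh1 averaged 354 ± 43.6 CPM in 4T1 (SD, n = 8), 218 ± 16.7 CPM with DIP (n = 10) and 326 ± 38.9 CPM in HC11 DOX (n = 10), and Epcam, the marker lower in 4T1, 70.4 ± 16.5, 187 ± 66.7 and 183 ± 51.9 CPM. Cldn7 was nearly absent from HC11, with 79.3 ± 10.1 CPM in 4T1, 0.175 ± 0.0850 CPM with DIP and 0.178 ± 0.108 CPM in HC11 DOX. The pan-leukocyte gene Ptprc averaged 0.0212, 0.00226 and 0.00519 CPM in 4T1, HC11 with DIP and HC11 DOX. Cd68, from the same list of 6 immune markers, averaged 5.40 ± 2.14, 6.01 ± 3.36 and 2.33 ± 0.456 CPM. Of 2 immune markers tested, 1 was called higher and 0 lower with DIP, and 1 higher and 1 lower in 4T1 than in HC11 DOX. Cd68 was the one called higher in both (log2 fold changes 1.39 and 1.18). The summed level of 6 fibroblast markers was 9.49 to 15.8 CPM in 4T1, 20.6 to 268 CPM with DIP and 38.1 to 98.8 CPM in HC11 DOX. Sums of endothelial markers reached at most 0.310, 1.56 and 5.23 CPM in the same groups, of adipocyte markers 0.0302, 0.616 and 0.114 CPM, and of 6 immune markers 9.45, 12.4 and 3.34 CPM. Of 6 glucocorticoid-responsive genes, 5 rose with DIP, beside 24.5% of all genes. Among them, Tsc22d3 was at 319 ± 157 CPM with DIP, against 21.1 ± 5.26 CPM in HC11 DOX. A pair of DIP libraries, numbers 8 and 10, stood apart: the mean log2 CPM over the same 6 genes was 3.77 and 3.82 there and 5.78 to 7.05 in the remaining 8, and it ran from 2.87 to 3.23 in HC11 DOX. Member results with DIP are therefore also given without them where the call or direction changes. Those in 4T1 are likewise given without 4T1 libraries 1 and 2, which held a low signal of HC11 genes described further on. Some counts over gene lists also shift when these libraries are left out, and not every such count is given.

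Per kilobase of exon, Sox9 was the most abundant member in both HC11 groups, at 104 CPM per kb with DIP and 68.2 CPM per kb with DOX alone. In 4T1 Cebpb was at 22.4, Gata3 at 18.9 and Sox9 at 11.1 CPM per kb. Trp63 was at 0.152 CPM per kb in 4T1, 9.16 in HC11 with DIP and 9.88 in HC11 DOX. The 3 lowest members in HC11 DOX were Foxa1 at 0.0165, Sox10 at 0.00162 and Pgr at 0.000326 CPM per kb.

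**Figure D1:**
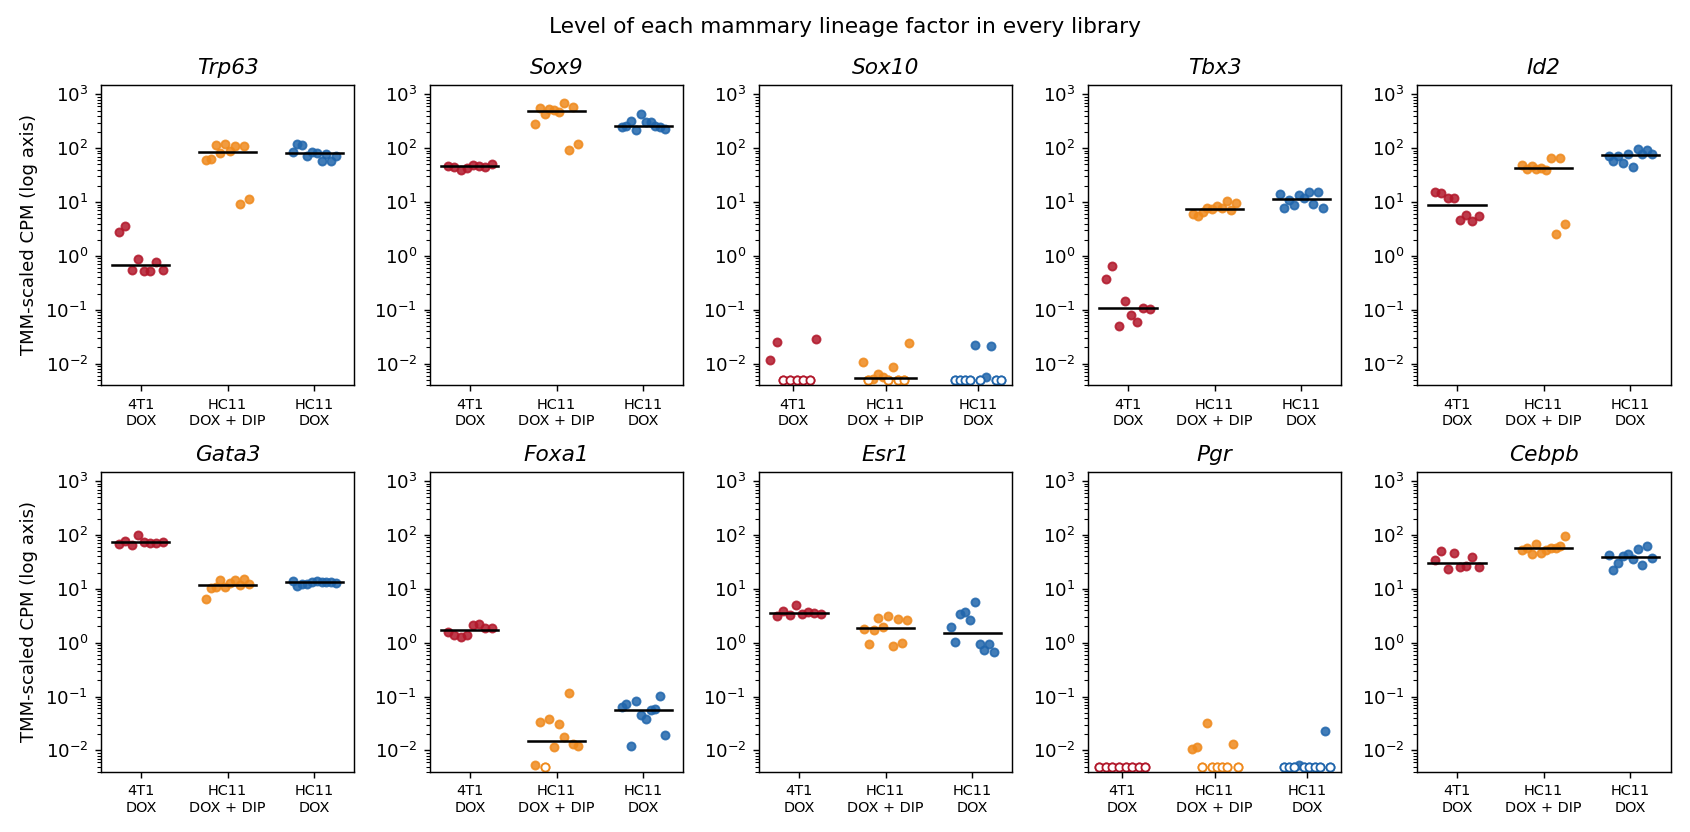
TMM-scaled CPM of the 10 members (vertical log axis) in each library of 4T1 DOX, HC11 DOX + DIP and HC11 DOX, with the group median as a bar and libraries at 0 counts as open circles at the bottom. Trp63 and Tbx3 are lower in 4T1 than in HC11, and Gata3 and Foxa1 are higher. For Trp63, Sox9 and Id2, 2 DIP libraries lie far below the other 8.

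With DIP, 7 of the 10 members had enough counts to be tested, and 2 had an adjusted p under 0.05 (edgeR, quasi-likelihood F test, Benjamini-Hochberg over all genes). Cebpb rose and Tbx3 fell. Over all 23829 genes tested, 45.5% passed, 24.5% as higher and 21.0% as lower. Without DIP libraries 8 and 10, 4 members passed, Sox9 and Cebpb higher and Tbx3 and Id2 lower, while 52.4% of 24427 genes passed, 27.0% as higher and 25.4% as lower.

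Between the lines, 8 members were tested and 6 passed, against 69.9% of 23875 genes, 34.3% as higher and 35.6% as lower. Gata3 and Foxa1 were higher in 4T1 than in HC11 DOX, and Trp63, Tbx3, Id2 and Sox9 were lower. Foxa1 had enough counts to be tested in the 4T1 contrasts only through its 4T1 libraries. Against HC11 with DIP, all 8 tested members passed, against 73.8% of 24132 genes, 35.9% as higher and 37.9% as lower. Gata3, Foxa1 and Esr1 were higher in 4T1 and the other 5 lower. In that contrast, cell line and DIP cannot be told apart, and it shares libraries with both other contrasts. Without 4T1 libraries 1 and 2, the same number of members passed in each contrast, 6 against HC11 DOX, where 66.4% of genes passed (32.4% as higher and 34.0% as lower), and 8 against HC11 with DIP, where 70.4% did (32.1% and 38.3%). Without DIP libraries 8 and 10, 8 passed between 4T1 and HC11 with DIP, against 79.6% of genes (39.3% as higher and 40.3% as lower). Most genes were called in both 4T1 contrasts, so that a call alone does not set a member apart. With library size as the only scaling, genes called in 4T1 over HC11 DOX were 5964 higher and 10661 lower, where TMM gave 8178 and 8510, and in 4T1 over HC11 with DIP they were 6723 and 11188, where TMM gave 8665 and 9149.

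**Figure D2:**
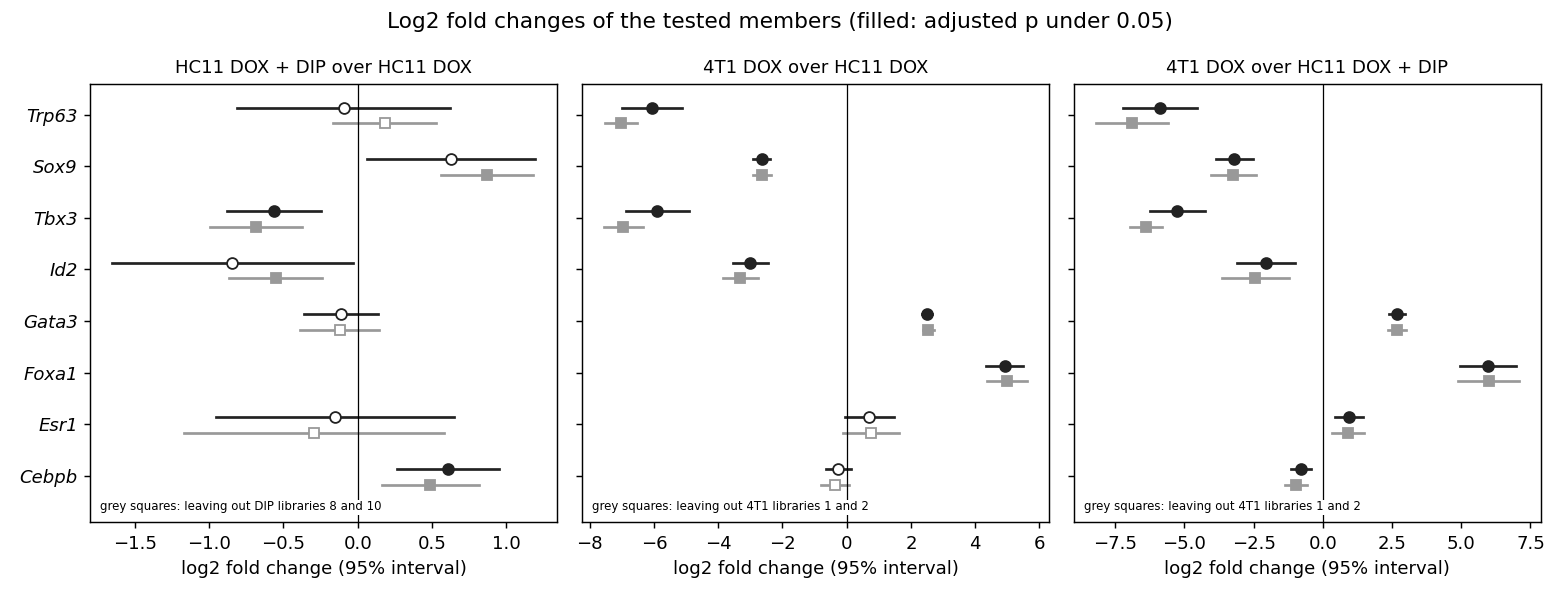
Log2 fold changes with 95% intervals (horizontal axis) of the members tested in HC11 DOX + DIP over HC11 DOX, 4T1 DOX over HC11 DOX and 4T1 DOX over HC11 DOX + DIP; filled symbols passed an adjusted p of 0.05, black circles use every library and grey squares leave out the libraries named in each panel. The intervals of Trp63, Gata3 and Esr1 span 0 with DIP, and those of Sox9 and Id2 narrow without DIP libraries 8 and 10.

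Trp63 (ENSMUSG00000022510) ran from 0.519 through a median of 0.669 to 3.62 CPM in 4T1, from 9.20 through 86.2 to 122 CPM in HC11 with DIP, and from 58.7 through 79.9 to 121 CPM in HC11 DOX. Every 4T1 library lay below every HC11 library, and the HC11 groups overlapped. In 4T1 over HC11 DOX the log2 fold change was -6.06 ± 0.45 (SE, adjusted p = 3.09e-10), and that over HC11 with DIP was -5.88 ± 0.64 (adjusted p = 9.82e-08). Without 4T1 libraries 1 and 2 they were -7.02 ± 0.24 and -6.91 ± 0.62. These are bulk samples, in which fewer cells of a type and less RNA per cell cannot be told apart. With DIP the log2 fold change was -0.10 ± 0.35 (adjusted p = 0.849), with a 95% interval from 0.569-fold to 1.54-fold. Without DIP libraries 8 and 10, it was 0.18 (adjusted p = 0.377). Counts are summed over the gene, so that isoforms of p63 with and without the transactivating domain are not separated.

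Of 18 genes listed as p63 targets, 3 were called higher with DIP and 10 lower, beside 24.5% and 21.0% of all genes, and their median log2 fold change was -0.59, where all genes had 0.06. Without DIP libraries 8 and 10 the counts were 5 and 9, beside 27.0% and 25.4% of all genes. Krt5, a keratin of basal cells, fell to 472 ± 256 CPM with DIP, against 3054 ± 1212 CPM in HC11 DOX (n = 10 each), a log2 fold change of -2.68 ± 0.39 (adjusted p = 7.81e-06). Sfn, which encodes the cell cycle adaptor 14-3-3 sigma, fell to 14.7 ± 3.20 CPM with DIP, against 81.7 ± 35.0 CPM in HC11 DOX. A further basal keratin gene, Krt15, rose to 153 ± 141 CPM with DIP, against 34.7 ± 8.70 CPM in HC11 DOX, with overlap between the groups.

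In 4T1, 14 of the same 18 targets were lower than in HC11 DOX and 3 were higher, beside 35.6% and 34.3% of all genes. The median log2 fold change of the targets was -2.20, against -0.01 over all genes. Among those named by the rule were Krt5, which averaged 31.1 ± 31.7 CPM in 4T1 (log2 fold change -6.65 ± 0.55), Trim29 (-6.11 ± 0.46) and the hemidesmosomal collagen gene Col17a1 (-5.99 ± 0.49). The adjusted p of Trim29 was 4.45e-10 and that of Col17a1 1.44e-09. The groups of these 3 genes did not overlap, but the genes were named for the size of their change. Their levels in 4T1 were highest in libraries 1 and 2, without which the log2 fold changes were -7.69 for Krt5, -7.04 for Trim29 and -6.95 for Col17a1. Set against HC11 with DIP, 4T1 had 3 targets higher and 13 lower, beside 35.9% and 37.9% of all genes. Without DIP libraries 8 and 10 it had 3 higher and 14 lower, beside 39.3% and 40.3%. With all libraries the targets were led by Krt15 (-6.69 ± 0.94), Trim29 (-5.21 ± 0.57) and Col17a1 (-4.57 ± 0.60). The groups of Krt15 overlapped, with up to 3.22 CPM in 4T1 and down to 1.24 CPM with DIP. In that contrast Trim29 was at -6.20 and Col17a1 at -5.60 without 4T1 libraries 1 and 2. Markers of basal and myoepithelial cells moved the same way. Of 8, 6 were called lower with DIP and 8 lower in 4T1 than in HC11 DOX, beside 21.0% and 35.6% of all genes. Called higher were 0 markers, and 1 with DIP when DIP libraries 8 and 10 were left out, beside 27.0% of all genes. The summed level of the 8 markers was 223 to 454 CPM in 4T1, 197 to 1747 CPM with DIP and 2992 to 8256 CPM in HC11 DOX. The contractile marker Acta2 averaged 0.262 CPM in 4T1, 0.480 CPM with DIP and 2.07 CPM in HC11 DOX. Krt5 and Krt14 are in both lists, and the part of these markers in the results was not tested.

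Sox9 (ENSMUSG00000000567), a factor of progenitor cells, ran from 39.1 through a median of 46.0 to 51.4 CPM in 4T1, from 92.7 through 497 to 704 CPM with DIP, and from 219 through 256 to 429 CPM in HC11 DOX. The 4T1 libraries were tightly grouped and all below HC11, while the DIP libraries spread on both sides of HC11 DOX. The log2 fold change was -2.65 ± 0.12 in 4T1 over HC11 DOX (adjusted p = 2.91e-13), or 6.27-fold lower, and -3.20 ± 0.32 in 4T1 over HC11 with DIP (adjusted p = 3.43e-08). With DIP it was 0.63 ± 0.27 over HC11 DOX, and the adjusted p of 0.0656 missed the threshold. Without DIP libraries 8 and 10, which were its lowest at 92.7 and 122 CPM, Sox9 rose 1.83-fold with DIP (log2 fold change 0.87 ± 0.15, adjusted p = 5.95e-05).

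Sox10 (ENSMUSG00000033006) was at the limit of counting. It had 11 counts in total over 3 of the 8 4T1 libraries, 11 counts over 6 of the 10 DIP libraries and 9 counts over 3 of the 10 HC11 DOX libraries, with at most 5 counts in any library. For counting error only, a library with no count could still hold 0.0172 CPM at the lowest depth in 4T1, 0.0224 CPM with DIP and 0.0221 CPM in HC11 DOX. Unlike the levels, these limits are scaled by library size without TMM factors. Sox10 was not tested in any comparison. Sox10 is best known in the Schwann cell and melanocyte lineages. Of 7 markers of these lineages, 4 were called higher with DIP and 1 lower, beside 24.5% and 21.0% of all genes. Of 6 tested in 4T1 over HC11 DOX, 2 were higher and 4 lower, beside 34.3% and 35.6%. The summed level of the 7 markers was 29.0 to 35.0 CPM in 4T1, 17.4 to 102 CPM with DIP and 15.3 to 31.0 CPM in HC11 DOX. S100b averaged 0.0780 ± 0.0463 CPM in 4T1, 11.2 ± 12.7 CPM with DIP and 0.473 ± 0.211 CPM in HC11 DOX. Mbp was higher in 4T1, at 27.2 ± 2.34 CPM, against 11.8 ± 4.32 CPM in HC11 DOX (log2 fold change 1.17 ± 0.20, adjusted p = 2.69e-05). The part of these markers in the counts of Sox10 was not tested.

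Tbx3 (ENSMUSG00000018604), a T-box factor, fell with DIP and was lowest in 4T1. It ran from 0.050 through a median of 0.106 to 0.645 CPM in 4T1, from 5.58 through 7.46 to 10.4 CPM with DIP, and from 7.69 through 11.3 to 15.4 CPM in HC11 DOX. The 4T1 libraries lay below all HC11 libraries, and the HC11 groups overlapped in part. With DIP it averaged 7.63 ± 1.48 CPM, against 11.4 ± 3.01 CPM in HC11 DOX (SD, n = 10 each), a log2 fold change of -0.56 ± 0.15 (adjusted p = 0.00457). In a fit of all 3 groups together the adjusted p was 0.113. Between 4T1 and HC11 DOX the log2 fold change was -5.90 ± 0.47 (adjusted p = 8.32e-10) and that over HC11 with DIP -5.26 ± 0.47 (adjusted p = 6.23e-09). Without 4T1 libraries 1 and 2 they were -6.95 ± 0.29 and -6.38 ± 0.27.

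The transcript Tbx3os1, which lies antisense to Tbx3 and shares 115 exonic bases with it (1.74% of the exonic length of Tbx3), moved the same way. It averaged 0.0168 ± 0.0176 CPM in 4T1, 0.332 ± 0.0344 CPM with DIP and 0.491 ± 0.103 CPM in HC11 DOX. The log2 fold change with DIP was -0.55 ± 0.15 (adjusted p = 0.00418). The strand setting of the counting is not given in the sources used here, so reads of the shared bases cannot be told apart.

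Id2 (ENSMUSG00000020644) encodes a helix-loop-helix protein that lacks a DNA-binding region and holds back its E protein partners. It ran from 4.47 through a median of 8.70 to 15.5 CPM in 4T1, from 2.51 through 42.2 to 66.4 CPM with DIP, and from 44.3 through 74.9 to 97.7 CPM in HC11 DOX. Within 4T1 its libraries fell apart, with libraries 1 to 4 between 11.7 and 15.5 CPM and libraries 5 to 8 between 4.47 and 5.66 CPM. It was lower in 4T1 than in HC11 DOX, with a log2 fold change of -3.00 ± 0.26 (adjusted p = 4.06e-09), or 7.97-fold. In 4T1 over HC11 with DIP the log2 fold change was -2.07 ± 0.50 (adjusted p = 0.00103), although DIP libraries 8 and 10, at 2.51 and 3.88 CPM, lay below every 4T1 library.

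With DIP, Id2 averaged 39.9 ± 21.5 CPM, against 72.5 ± 16.5 CPM in HC11 DOX (SD, n = 10 each), a log2 fold change of -0.84 ± 0.39 that missed the threshold (adjusted p = 0.0840). Without DIP libraries 8 and 10 the fall was smaller and passed, at 49.0 ± 10.7 CPM with DIP (n = 8) and a log2 fold change of -0.55 ± 0.15 (adjusted p = 0.00392). Other Id genes fell further with DIP. Id3 averaged 7.84 ± 7.64 CPM with DIP and 117 ± 63.02 CPM in HC11 DOX (log2 fold change -3.87 ± 0.46, adjusted p = 6.15e-07). Id1 averaged 13.6 ± 8.15 CPM with DIP and 83.7 ± 40.4 CPM in HC11 DOX (-2.59 ± 0.34, adjusted p = 2.38e-06). For both genes the groups did not overlap, but both were named for the size of their change. Id4 had a log2 fold change of -1.25 ± 0.27 with DIP.

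The E proteins bound by Id factors are encoded by Tcf3, Tcf4 and Tcf12. With DIP Tcf3 fell to 57.5 ± 13.7 CPM, against 120 ± 17.4 CPM in HC11 DOX (log2 fold change -1.04 ± 0.13, adjusted p = 1.66e-06), and Tcf12 rose (0.41 ± 0.13, adjusted p = 0.0158, and 0.0652 without DIP libraries 8 and 10). In 4T1 Tcf4 was higher than in HC11 DOX (0.48 ± 0.13, adjusted p = 0.00228) and Tcf12 lower (-0.25 ± 0.09, adjusted p = 0.0258), and without 4T1 libraries 1 and 2 no E protein gene was called lower. Relative to HC11 with DIP, 4T1 had Tcf3 higher (1.25 ± 0.13) and Tcf12 lower (-0.58 ± 0.14).

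Gata3 (ENSMUSG00000015619), a zinc finger factor of luminal cells, was the most even member within HC11 DOX and was higher in 4T1. It ran from 66.0 through a median of 73.2 to 98.0 CPM in 4T1, from 6.46 through 11.95 to 14.9 CPM with DIP, and from 11.3 through 13.4 to 13.9 CPM in HC11 DOX. Every 4T1 library lay above every HC11 library. It was higher in 4T1 than in HC11 DOX by a log2 fold change of 2.499 ± 0.07 (adjusted p = 2.40e-16), or 5.65-fold, and that over HC11 with DIP was 2.69 ± 0.14 (adjusted p = 1.77e-12). With DIP it was -0.11 ± 0.12 (adjusted p = 0.481), and the 95% interval ran from 0.779-fold to 1.10-fold.

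Both transcripts that share exonic bases with Gata3 were also higher in 4T1 than in HC11 DOX. Gm13256, antisense to it with 155 shared exonic bases (3.90% of Gata3), averaged 3.21 ± 0.605 CPM in 4T1 and 0.760 ± 0.108 CPM in HC11 DOX. The log2 fold change of Gm13256 was 2.06 ± 0.14 (adjusted p = 7.68e-11). 9230102O04Rik, on the same strand with 77 shared bases, averaged 2.57 ± 0.582 CPM in 4T1 and 0.487 ± 0.222 CPM in HC11 DOX (2.36 ± 0.25, adjusted p = 7.24e-08). Zfpm1, which encodes the GATA cofactor FOG1, averaged 34.3 ± 4.83 CPM in 4T1 and 4.90 ± 1.25 CPM in HC11 with DIP (log2 fold change 2.84 ± 0.15, adjusted p = 4.51e-12). The summed level of 8 luminal cell markers was 1911 to 2769 CPM in 4T1, 191 to 952 CPM with DIP and 680 to 780.5 CPM in HC11 DOX. Krt8, Krt18 and Cldn3 are also among the epithelial markers above. Of 7 luminal markers tested, 4 were higher in 4T1 than in HC11 DOX and 3 lower, beside 34.3% and 35.6% of all genes. Their median log2 fold change was 1.06. Without 4T1 libraries 1 and 2, 8 were tested, 4 higher and 4 lower, beside 32.4% and 34.0%, with a median of -0.08. The part of these markers was not tested.

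Foxa1 (ENSMUSG00000035451), a forkhead factor that opens chromatin for the oestrogen receptor, was low in all groups and highest in 4T1. Counts ran from 203 to 361 per 4T1 library, from 0 to 18 per DIP library and from 2 to 18 per HC11 DOX library. As levels, it averaged 1.71 ± 0.346 CPM in 4T1 (SD, n = 8), 0.0277 ± 0.0330 CPM with DIP (n = 10) and 0.0548 ± 0.0275 CPM in HC11 DOX (n = 10). In 4T1, libraries 1 to 4 held 1.27 to 1.56 CPM and libraries 5 to 8 held 1.84 to 2.18 CPM, the reverse of Id2. The log2 fold change was 4.92 ± 0.28 over HC11 DOX (adjusted p = 5.49e-12), or 30.2-fold, and 5.97 ± 0.48 over HC11 with DIP (adjusted p = 1.50e-09). It was too low to be tested between the HC11 groups, with 47 counts in total with DIP and 94 in HC11 DOX. Foxa1 therefore passed the expression filter in the 4T1 contrasts only through its 4T1 libraries. Only a higher level in 4T1 could have been called there.

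RefSeq (GRCm38.p6) gave promoters for 6 of the 10 members: Gata3, Foxa1, Esr1, Pgr, Id2 and Cebpb. Those of 3 members are printed because the genes contrast in level: Foxa1, which was higher in 4T1, Cebpb, which was expressed in every library and rose with DIP, and Pgr, which was at or near 0 in every library. Each is the 250 bases before the annotated start, 5′ to 3′ on the gene's strand, with matches to the searched motifs in capitals.
Foxa1: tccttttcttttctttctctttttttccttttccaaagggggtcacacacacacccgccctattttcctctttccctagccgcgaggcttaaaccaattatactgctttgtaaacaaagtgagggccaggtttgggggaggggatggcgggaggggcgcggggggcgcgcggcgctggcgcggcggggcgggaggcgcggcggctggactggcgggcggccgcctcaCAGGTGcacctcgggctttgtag
Cebpb: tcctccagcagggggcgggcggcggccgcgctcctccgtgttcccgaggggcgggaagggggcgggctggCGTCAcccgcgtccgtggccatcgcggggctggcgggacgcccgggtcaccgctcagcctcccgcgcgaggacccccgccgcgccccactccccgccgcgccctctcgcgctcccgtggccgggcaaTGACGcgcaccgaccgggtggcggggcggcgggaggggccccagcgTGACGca
Pgr: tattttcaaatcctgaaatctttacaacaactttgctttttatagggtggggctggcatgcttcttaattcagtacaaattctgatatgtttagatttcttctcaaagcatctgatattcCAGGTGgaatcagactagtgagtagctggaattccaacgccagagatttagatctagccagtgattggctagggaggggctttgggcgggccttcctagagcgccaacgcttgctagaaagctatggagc
They lie at chr12:57546112-57546361 (minus strand), chr2:167688665-167688914 (plus strand) and chr9:8899583-8899832 (plus strand) of GRCm38.p6, while the counts were made on GRCm39. The motifs searched on both strands were the half-site TGACG of cyclic AMP response elements, the half-site AGAACA of the glucocorticoid receptor, AGATAA for GATA factors, CACCTG, an E-box bound by SNAI and ZEB factors, and TTGCNNAA for C/EBP factors. None of these contains another. Cebpb held 3 matches to TGACG, the first at position -180 from the start. Of 32851 RefSeq promoters of the same length, 17.8% held at least 1 such match and 0.688% at least 3. Foxa1 and Pgr each held 1 match to CACCTG, at positions -23 and -130, as did 17.2% of all promoters. Of the 2 annotated Esr1 promoters, 1 held 1 match to TTGCNNAA, at position -155, as did 9.56% of all promoters. The other Esr1 promoter and those of Gata3 and Id2 held no match to any of the 5 motifs. The Cebpb promoter was 81.6% G and C with 41 CpG dinucleotides, that of Foxa1 62.0% with 21 and that of Pgr 43.6% with 4, against medians of 52.4% and 6 over all promoters. A match is a run of letters and not a measured site.

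Esr1 (ENSMUSG00000019768) varied widely between HC11 libraries. It ran from 3.12 through a median of 3.53 to 4.91 CPM in 4T1, from 0.870 through 1.84 to 3.18 CPM with DIP, and from 0.683 through 1.52 to 5.77 CPM in HC11 DOX. The 4T1 libraries were even, and HC11 DOX libraries 3, 4 and 6 reached 3.38, 3.72 and 5.77 CPM. For 4T1 over HC11 DOX the log2 fold change was 0.70 ± 0.37 (adjusted p = 0.0954, 95% interval 0.956-fold to 2.78-fold). It passed without HC11 DOX library 6, at 1.00 (adjusted p = 0.0116), and under limma voom, at 1.10 (adjusted p = 0.00815). Esr1 was 1.91-fold higher in 4T1 than in HC11 with DIP (log2 fold change 0.94 ± 0.24, adjusted p = 0.00174), with some overlap at 3.18 CPM. With DIP it was -0.15 ± 0.39 over HC11 DOX (adjusted p = 0.783, 95% interval 0.517-fold to 1.57-fold), and 0.15 without HC11 DOX library 6.

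Pgr (ENSMUSG00000031870), a target of the oestrogen receptor, had 0 counts in all 8 4T1 libraries, 11 counts over 4 of the 10 DIP libraries and 5 counts over 2 of the 10 HC11 DOX libraries. The 0 counts in 4T1 allow a level of up to 0.0172 CPM in the shallowest library, scaled by library size without TMM factors. Pgr was not tested, and no difference between groups was detectable at this depth.

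Of 15 listed genes of hormone-sensing cells, 11 were tested with DIP, 3 called higher and 3 lower, beside 24.5% and 21.0% of all genes, and the median log2 fold change was -0.35. Leaving out DIP libraries 8 and 10, 2 were called higher and 2 lower, beside 27.0% and 25.4% of all genes. The median of the listed genes was then -0.10. Myb, a transcription factor gene induced by oestrogen in human breast cancer cells, fell to 0.240 ± 0.119 CPM with DIP, against 6.24 ± 1.46 CPM in HC11 DOX (-4.67 ± 0.27, adjusted p = 1.22e-11). Igfbp4, an insulin-like growth factor binding protein gene, rose (1.25 ± 0.45, adjusted p = 0.0281, and 0.0555 without DIP libraries 8 and 10), and the chemokine gene Cxcl12 fell (-1.18 ± 0.40, adjusted p = 0.020). In 4T1, 3 of 11 tested were higher than in HC11 DOX and 7 lower, beside 34.3% and 35.6% of all genes. The median log2 fold change of the listed genes was -3.09, where all genes had -0.01. Wnt4, the paracrine signal downstream of the progesterone receptor, averaged 0.303 ± 0.221 CPM in 4T1 and 18.0 ± 7.50 CPM in HC11 DOX, a log2 fold change of -5.91 ± 0.39. Cxcl12 was at -5.69 ± 0.53, and Igfbp4 was higher, with 683 ± 74.0 CPM in 4T1, against 15.4 ± 12.9 CPM in HC11 DOX. Of 10 tested against HC11 with DIP, 3 were higher in 4T1 and 5 lower, beside 35.9% and 37.9% of all genes, with a median of -1.97. Without DIP libraries 8 and 10, 9 were tested, 3 higher and 4 lower, beside 39.3% and 40.3%, with a median of -0.37. With all libraries the same 3 genes led, with log2 fold changes of -5.30 for Wnt4, -4.44 for Cxcl12 and 4.27 for Igfbp4. With 4T1 libraries 1 and 2 left out, Cxcl12 was at -6.79 over HC11 DOX and -5.59 over HC11 with DIP, and Wnt4 at -6.48 and -5.93.

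Genes listed with cofactors of steroid receptors, which also held the glucocorticoid receptor gene Nr3c1, were mostly not called with DIP. Of 9, 1 was called higher and 1 lower, beside 24.5% and 21.0% of all genes. Ncoa1 rose (0.65 ± 0.16, adjusted p = 0.00266) and Fkbp4 fell (-0.53 ± 0.14, adjusted p = 0.00349). Without DIP libraries 8 and 10, 2 of the 9 were higher, beside 27.0% of all genes. In 4T1, 2 of 9 were higher than in HC11 DOX and 7 lower, beside 34.3% and 35.6% of all genes. The chaperone gene Hsp90aa1 was higher (1.69 ± 0.20), and the coactivator genes Ncoa3 (-1.59 ± 0.10) and Ncoa1 (-1.22 ± 0.17) were lower. Relative to HC11 with DIP the counts were 2 higher and 6 lower in 4T1, beside 35.9% and 37.9% of all genes. Ncoa1 was at -1.79, Hsp90aa1 at 1.78 and Ncoa3 at -1.43. The number lower was 7 without DIP libraries 8 and 10, beside 40.3% of all genes. It was 5 without 4T1 libraries 1 and 2, beside 38.3%.

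Cebpb (ENSMUSG00000056501), a leucine zipper factor of alveolar differentiation, rose with DIP. It ran from 23.0 through a median of 30.2 to 51.3 CPM in 4T1, from 45.0 through 57.1 to 96.4 CPM with DIP, and from 22.3 through 38.9 to 62.5 CPM in HC11 DOX. All groups overlapped, and DIP library 10 was the highest library of all. With DIP it averaged 59.7 ± 14.6 CPM, against 39.7 ± 12.03 CPM in HC11 DOX (SD, n = 10 each), a log2 fold change of 0.61 ± 0.17 (adjusted p = 0.00502). Leaving out DIP libraries 8 and 10 gave 0.49 (adjusted p = 0.0129). In 4T1 over HC11 DOX it was -0.26 ± 0.19 (adjusted p = 0.218, 95% interval 0.633-fold to 1.09-fold), and -0.50 (adjusted p = 0.0225) with library size as the only scaling. Cebpb was 1.73-fold lower in 4T1 than in HC11 with DIP (-0.79 ± 0.18, adjusted p = 4.65e-04).

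Tmem189 lies on the opposite strand and shares 312 exonic bases with Cebpb, 20.7% of the exonic length of Cebpb, so that some reads could belong to either gene. Tmem189 averaged 72.6 ± 12.6 CPM with DIP and 68.3 ± 8.36 CPM in HC11 DOX (log2 fold change 0.11 ± 0.10, adjusted p = 0.420), and was lower in 4T1 than in HC11 DOX, at 42.7 ± 4.73 CPM (-0.70 ± 0.08, adjusted p = 1.69e-07). Its part in the values of Cebpb was not tested. None of 7 milk protein genes passed the expression filter in any comparison, and their summed level was at most 0.127 CPM in 4T1, 0.178 CPM with DIP and 0.0566 CPM in HC11 DOX.

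Of 31 further members of the same gene families, 24 were tested with DIP, 6 called higher and 6 lower, close to the 24.5% and 21.0% of all genes. Leaving out DIP libraries 8 and 10, 10 of 25 were called higher and 7 lower, beside 27.0% and 25.4% of all genes. Besides Id3 and Id1, the largest change was that of Sox11, at 2.81 ± 1.75 CPM with DIP and 39.9 ± 8.10 CPM in HC11 DOX (-3.81 ± 0.30, adjusted p = 1.48e-09). In 4T1, 8 of 25 tested were higher than in HC11 DOX and 17 lower, beside 34.3% and 35.6% of all genes. The largest changes were those of Sox6 (-6.49 ± 0.51), Sox11 (-6.35 ± 0.49) and Id4 (-5.86 ± 0.41). Of 27 tested in 4T1 over HC11 with DIP, 8 were higher and 15 lower, beside 35.9% and 37.9% of all genes. Without DIP libraries 8 and 10, 9 were higher and 16 lower, beside 39.3% and 40.3%. Sox12 averaged 19.5 ± 3.40 CPM in 4T1 and 0.109 ± 0.0735 CPM in HC11 with DIP (7.52 ± 0.41), and Sox6 was at -6.61 ± 0.65 and Id4 at -4.53 ± 0.51. Without 4T1 libraries 1 and 2, the values over HC11 DOX were -7.35 for Sox6, -7.37 for Sox11 and -6.67 for Id4, and those over HC11 with DIP -7.53 for Sox6 and -5.41 for Id4.

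Of 14 other regulators of luminal and alveolar cells, 5 were called higher with DIP, 1 lower and 8 in neither direction, beside 24.5% and 21.0% of all genes called higher and lower. Their median log2 fold change was 0.22, where all genes had 0.06. Ehf, an ETS factor of epithelia, averaged 96.3 ± 67.2 CPM with DIP and 6.52 ± 3.40 CPM in HC11 DOX (3.91 ± 0.59), with overlap. The Notch target Hey1 fell (-2.36 ± 0.46), and Lmo4, a LIM-only cofactor gene, rose to 100.2 ± 21.8 CPM with DIP, against 49.3 ± 9.50 CPM in HC11 DOX. In 4T1, 3 of 14 were higher than in HC11 DOX and 10 lower, beside 34.3% and 35.6% of all genes. Tfap2c, which encodes an AP-2 factor, was at -6.11 ± 0.41, Ehf at -3.84 ± 0.44 and Hey1 at -3.39 ± 0.43. Relative to HC11 with DIP, 2 were higher in 4T1 and 9 lower, beside 35.9% and 37.9% of all genes. Ehf was at -7.66 ± 0.85 and Tfap2c at -5.69 ± 0.45. Without DIP libraries 8 and 10, 2 were higher and 10 lower, beside 39.3% and 40.3%. Leaving out 4T1 libraries 1 and 2, Tfap2c was at -6.84 over HC11 DOX and -6.49 over HC11 with DIP, and Ehf at -4.48 and -8.36.

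Of 12 other regulators of basal and progenitor cells, 3 rose and 4 fell with DIP, beside 24.5% and 21.0% of all genes. Bcl11a (-1.46 ± 0.17), Bcl11b (-1.38 ± 0.24) and Id4 (-1.25 ± 0.27) had the largest falls. In 4T1, 2 were higher than in HC11 DOX and 8 lower, beside 34.3% and 35.6% of all genes. Snai2, a zinc finger factor of basal cells, averaged 0.633 ± 0.619 CPM in 4T1 and 43.7 ± 11.9 CPM in HC11 DOX (-6.14 ± 0.45), and Bcl11b was at -6.49 ± 0.47. Zeb2, a repressor of epithelial genes, was higher, with 17.9 ± 1.91 CPM in 4T1, against 0.274 ± 0.173 CPM in HC11 DOX (6.005 ± 0.32). Against HC11 with DIP, 3 were higher in 4T1 and 6 lower, beside 35.9% and 37.9% of all genes. The largest changes were those of Snai2 (-5.92 ± 0.56), Zeb2 (4.92 ± 0.64) and Id4. Without DIP libraries 8 and 10, 3 were higher and 8 lower, beside 39.3% and 40.3%. Without 4T1 libraries 1 and 2, Snai2 was at -7.07 over HC11 DOX and -6.91 over HC11 with DIP, and Bcl11b at -7.23 over HC11 DOX.

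DIP libraries 8 and 10 differed from the other DIP libraries at some members and not at others. Trp63 was at 9.20 and 11.2 CPM there, against 59.5 to 122 CPM in the other 8. Sox9 was at 92.7 and 122 CPM, against 285 to 704 CPM, and Id2 at 2.51 and 3.88 CPM, against 39.8 to 66.4 CPM. For these 3 genes both libraries also lay below every HC11 DOX library. Gata3, at 11.8 and 12.1 CPM, and Esr1, at 2.71 and 2.59 CPM, lay within the range of the other DIP libraries. Tbx3, at 10.4 and 9.43 CPM, was above the other 8, which ran from 5.58 to 8.60 CPM. The pair was singled out by its glucocorticoid-responsive genes in earlier results of these data, and no test was made between the 2 sets.

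**Figure D3:**
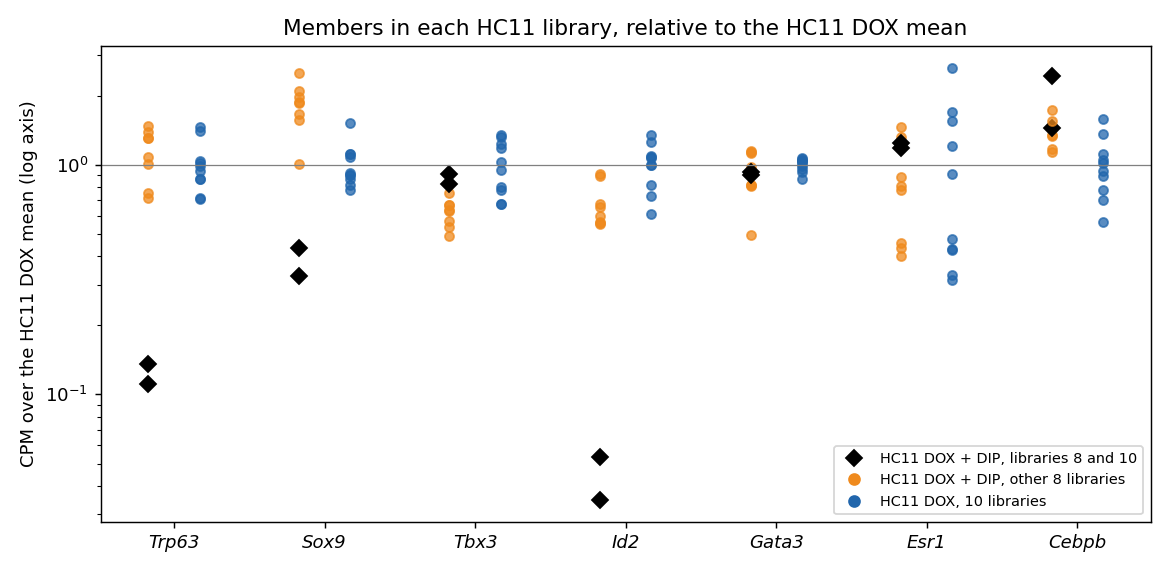
CPM of 7 members in each HC11 library as a ratio to the HC11 DOX mean (vertical log axis), with DIP libraries on the left of each gene and DOX libraries on the right; black diamonds are DIP libraries 8 and 10. For Trp63, Sox9 and Id2 the diamonds lie below all other HC11 libraries, and for Gata3 and Esr1 they lie among them.

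The low levels of Trp63 and Tbx3 in 4T1 moved with a signal of HC11 genes that differed between 4T1 libraries. Over 250 genes above 10 CPM in HC11 DOX and under 2% of that level in the mean of 4T1 libraries 3, 5, 6, 7 and 8, members left out, the median level was 3.11% of HC11 DOX in 4T1 library 1, 4.56% in library 2, 1.403% in library 4 and 0.540% to 0.889% in the other 5, whose low values the choice of genes fixed. Trp63 stood at 3.32% of its HC11 DOX mean in library 1, 4.37% in library 2 and 1.06% in library 4, and at 0.627% to 0.942% in the other 5. Tbx3 stood at 3.23%, 5.64% and 1.27% in the same 3 libraries and at 0.438% to 0.953% in the remaining libraries. The part of this signal in the values of both genes was not tested. Sox9 was at 13.9% to 18.2% in every 4T1 library, above that signal. Id2 was at 16.2% to 21.3% in libraries 1 to 4 and 6.17% to 7.81% in libraries 5 to 8.

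**Figure D4:**
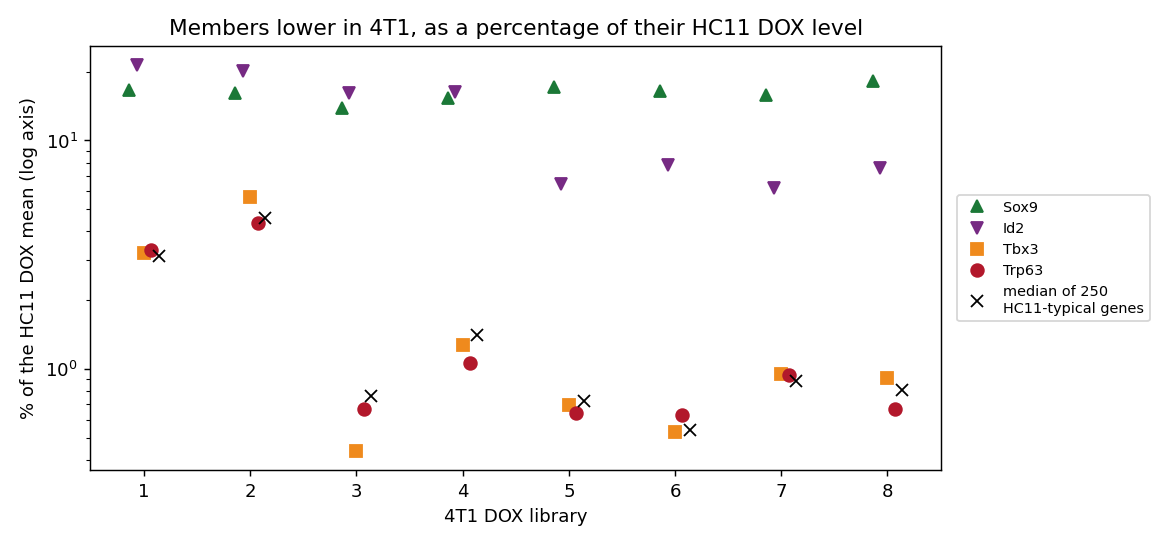
Level of Sox9, Id2, Tbx3 and Trp63 in each 4T1 library as a percentage of the HC11 DOX mean (vertical log axis), with the median over 250 HC11-typical genes as crosses. Trp63 and Tbx3 lie close to the crosses in every library, highest in libraries 1 and 2, and Sox9 and Id2 lie above them.

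Among members, library-to-library deviations from the group means had their highest pooled Pearson r for Trp63 and Tbx3 (0.78 over 26 libraries, DIP libraries 8 and 10 left out), but the groups differed. That r was 0.97 within 4T1, where libraries 1 and 2 were high for both genes, 0.55 within DIP and -0.44 within HC11 DOX. Next came Tbx3 with Cebpb (0.65 pooled, and 0.77, 0.16 and 0.77 within 4T1, DIP and HC11 DOX) and Gata3 with Sox9 (0.62 pooled, and 0.029, 0.87 and 0.28 within the same groups). Among genes whose log2 CPM averaged 2 or more, those most like Trp63 were Plch2 (r = 0.92) and the basal factor gene Snai2 (0.92). The r of Snai2 was 0.95 within 4T1, 0.76 within DIP and 0.82 within HC11 DOX, whereas that of Plch2 was 0.29 within HC11 DOX. Most like Sox9 were Nfix (0.92) and the ETS factor gene Etv6 (0.92), most like Esr1 were Steap2 (0.92) and Cryz (0.90), and most like Gata3 were Acd (0.91) and Hmg20b (0.87). Kif26a (0.93) and Mark1 (0.91) were most like Tbx3, Gpx2 (0.82) and Nol4l (0.80) most like Id2, and Tmem160 (0.85) and Galk1 (0.84) most like Cebpb. These r are pooled, and some differed between groups. That of Tmem160 with Cebpb was 0.97 within 4T1 and 0.33 within DIP. For Sox9, Nfix had 0.31 and Etv6 0.43 within 4T1, against 0.98 and 0.99 within DIP. These values describe libraries that share depth and sample quality, and no test was made on them.

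Ordered by mean level, Trp63 was lowest in 4T1, and its HC11 groups did not differ beyond their spread. Tbx3 and Id2 were lowest in 4T1 and highest in HC11 DOX, and Sox9 was lowest in 4T1 and highest with DIP. For Id2 and Sox9 the HC11 groups passed the threshold without DIP libraries 8 and 10 and missed it with them. Gata3 was highest in 4T1, and its HC11 groups did not differ beyond their spread. Esr1 had its highest mean in 4T1 and differed beyond its spread only from HC11 with DIP, not between 4T1 and HC11 DOX (adjusted p = 0.0954) or between the HC11 groups. Foxa1 was highest in 4T1, with the HC11 groups not tested. Cebpb was highest with DIP, and its levels in 4T1 and HC11 DOX did not differ beyond their spread.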

How the data were processed

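The analysis started from gene counts of 28 libraries. The authors, per the submitters' processing notes, used fastp 0.23.2, a read trimmer, featureCounts 2.0.1, a read counter, and the mouse build GRCm39. The deposited files hold read counts. The sources used here name no aligner, strand setting or annotation release. The values are whole read counts per Ensembl gene with no normalisation. Groups came from the cell line and treatment labels, and library numbers only name libraries. No libraries of a group were copies (lowest chi-square per degree of freedom 16.3). Symbols, exon lengths and overlaps came from GENCODE vM21, which named 52073 of 56748 identifiers and all 170 listed names. It belongs to another build, so it gave no coordinates.

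Each comparison was fitted on its 2 groups with edgeR 4.0.16 under R 4.3.3 (filterByExpr, TMM, robust glmQLFit, glmQLFTest), with Benjamini-Hochberg adjustment over all genes tested and calls at an adjusted p under 0.05. Standard errors are the log2 fold change divided by the square root of F. CPM were scaled with TMM factors from all libraries, and log2 values used a prior count of 2. From each gene list the text names, per comparison, the 3 called genes with the largest change and a mean log2 CPM of at least 0, besides 1 glucocorticoid check gene and, for each member averaging at least 1 CPM, the 2 genes most like it. Milk genes, family members and markers were listed too, and 1 marker is not reported here. The markers named singly were chosen from the marker lists after they were seen, as were Tmem189, Tbx3os1, Gm13256 and 9230102O04Rik, which share exons with members. Alternatives were RLE factors, library size only, no filter, DESeq2 1.42.0, limma 3.58.1 (voom), 1 fit over all groups and leaving out libraries. Members, lists and left-out libraries were chosen with earlier results of these data known.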

Additional observations from a re-analysis of the deposited data

Results flagged for a closer look

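Of 29 sets of a member's levels in a group, 9 held a library that stood far from the others, by the gap to its nearest neighbour relative to the range of the group. About 1 in 20 would by chance if levels were normally distributed. That share does not hold for sets near the limit of counting. In 4T1, library 4 was the highest for both Gata3, at 98.0 CPM, and Esr1, at 4.91 CPM. With DIP, library 1 was the lowest for Gata3, at 6.46 CPM, and library 10 the highest for Cebpb, at 96.4 CPM. HC11 DOX library 5 was the highest for Sox9, at 429 CPM. The other 4 were of genes near the limit of counting: Foxa1 with DIP in library 8, at 0.115 CPM or 18 counts, Pgr with DIP in library 4, at 0.0319 CPM or 5 counts, Pgr in HC11 DOX library 9, at 0.0224 CPM or 4 counts, and Sox10 with DIP in library 10, at 0.0240 CPM or 4 counts.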

How the results depend on the processing

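With DIP, 2 members were called, and 4 without DIP libraries 8 and 10. Sox9 was called besides by DESeq2 (0.64), in 1 fit of all groups (0.60) and without HC11 DOX library 5 (0.70), DIP library 8 (0.75) or DIP library 10 (0.73), Id2 by limma voom (-1.31), and Tbx3 was lost in the fit of all groups (-0.58). Trp63 turned to 0.18 without DIP libraries 8 and 10, and ran from -0.20 to 0.039 when single libraries were left out. Esr1 turned to 0.10 under limma voom, and ran from -0.26 to 0.15. In 4T1 over HC11 DOX, leaving out single libraries gave 6 to 7 calls among members, and against HC11 with DIP 8 in every case. With DIP it gave 2 to 3. The number of genes called stayed within 1.5 times under every alternative. The median log2 fold change over all genes in 4T1 over HC11 DOX was -0.01 with TMM and -0.24 with library size only, and against HC11 with DIP it was -0.04, -0.34 and, with RLE factors, -0.14. No direction of a called member changed under any scaling. The causes were not tested. No paired analysis was possible because the labels give no replicate numbers shared between groups. Depth limits Pgr and Sox10, with at most 5 counts in a library.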
